A study of Mus musculus with 8 samples.

Results

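The complement genes examined here were C3, C4b, C1ra, C1s1, Cfb, Cfd, Serping1, Cd55 and C5ar1, that is 9 of the 40840 genes in the deposited tables, taken by gene symbol. Their RNA was measured by RNA-seq in primary mouse myofibroblastic hepatic stellate cells (pMF-HSCs). Wild-type stellate cells were sorted by retinol autofluorescence from livers of male C57BL/6J mice aged 15 to 18 weeks and became myofibroblastic on their own over 7 days of culture. They then received DMSO (control, n = 4) or 50 µM OSMI-1 (OGTi, n = 4) for 24 h. OSMI-1 inhibits O-GlcNAc transferase, the enzyme that places O-GlcNAc sugars on nuclear and cytosolic proteins. How many mice contributed to a culture was not given in the sources used here. The comparison asks whether blocking this enzyme altered the complement RNA of these cells.

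Complement is a cascade of blood proteins that tags surfaces for clearance, recruits leukocytes and can perforate membranes. In the classical pathway the C1r and C1s proteases cleave C4 and C2, the alternative pathway is driven by factor B and factor D, and all routes meet at C3. Most circulating complement is made by hepatocytes, while fibroblast-like cells and macrophages also make several components, together with the inhibitors that protect their own surfaces.

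C5ar1, which encodes the receptor for the C5a fragment, was lower in OGTi, and none of the other members passed the test. C5ar1 fell 2.67-fold and was lower in OGTi in 4 of 4 replicates. Of the 8 members tested, 1 was lower and 0 were higher at an edgeR adjusted p of at most 0.05, against 10.2% and 8.13% of all 19963 genes tested, or 18.4% in either direction. Of the 8, 2 had an unadjusted edgeR p under 0.05, as did 31.8% of all genes tested, and DESeq2 called 1 member, C5ar1. The median log2 fold change of the 8 members was 0.06, against 0.01 over all genes tested. For C1ra, C1s1, Cfb and Serping1, at least 94.2% of the variance lay between the replicate numbers shared by a control and an OGTi culture. In bulk RNA, fewer cells of a type and less RNA per cell cannot be told apart.

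Libraries held 30068881 to 37372423 counts, with 11 to 104 counts per library for C3 and Cd55, the tested members of lowest level. In OGTi replicate 4, 23746 genes had any count, against 19035 to 20293 in the other libraries. The labelled cell type was checked against its markers. The stellate and myofibroblast list (12 genes, 12 tested) summed to 7945 to 15626 TPM in control and 6700 to 16314 TPM in OGTi, where TPM is an RNA level per length and per library, with Dcn, Acta2 and Tagln giving most of the sum. Within that list 2 genes were lower in OGTi and 0 were higher, namely Lrat (log2 fold change -1.78, edgeR adjusted p 0.00232), the enzyme that stores retinol, and Pdgfrb (-1.68, adjusted p 0.00154), a growth factor receptor, and neither overlapped between groups. Hepatocyte markers (10 genes) summed to 0.11 to 0.62 TPM in control and 0.64 to 1.72 TPM in OGTi, with Hnf4a and Tat at 0 counts in every library. Endothelial markers (9 genes) summed to 1.78 to 3.15 and 0.39 to 1.14 TPM. Macrophage markers (14 genes) summed to 62.1 to 191.3 and 94.7 to 236.7 TPM, mostly from Lyz2 and Cd68, while Adgre1, a defining marker of resident macrophages, did not exceed 0.96 TPM. Of the 12 macrophage markers tested Cd68 was higher and Cd14 lower in OGTi. Of the 8 endothelial markers tested Tek (log2 fold change -3.36, edgeR adjusted p 0.00235) and Lyve1 (-3.17, adjusted p 0.0340) were lower. Of the 5 hepatocyte markers tested Cyp2e1 was higher (3.98, adjusted p 0.00591). Both Lyve1 (11 to 38 counts in control, 0 to 8 in OGTi) and Cyp2e1 (1 to 3 and 11 to 40) were near the floor. Of all genes tested, 8.13% were called higher and 10.2% lower, and 23.5% did not overlap between groups. Over all genes, the scaling moved the median log2 fold change from 0.01 with TMM to -0.19 with library totals and 0.13 with upper-quartile scaling, and the percentage of called genes that were higher from 44.3% to 30.1% and 54.2%. Small shifts near 0 therefore have no firm direction.

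Members differed widely in level. Serping1, encoding C1 inhibitor, which blocks C1r and C1s, stood at 842.3 ± 464.8 TPM in control and 695.8 ± 309.8 TPM in OGTi (SD, n = 4). It made up 94.1% of the summed TPM of the members in control and 94.2% in OGTi. In control the levels then ran from C1ra (17.0 ± 10.1 TPM) and C1s1 (15.4 ± 10.7 TPM) through Cfb (8.93 ± 4.80 TPM) and C5ar1 (8.35 ± 2.13 TPM) to C4b (1.79 ± 1.49 TPM), Cd55 (0.695 ± 0.184 TPM) and C3 (0.443 ± 0.171 TPM). Neighbours in this order overlapped in their ranges over libraries, except Serping1 above C1ra and C5ar1 above C4b. In OGTi the order was the same. There C5ar1 (2.54 ± 0.823 TPM) overlapped with C4b (1.73 ± 1.71 TPM), and Cd55 (0.968 ± 0.404 TPM) lay above C3 (0.290 ± 0.162 TPM) without overlap. The central component C3 was thus the least abundant member that could be tested.

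**Figure D1:**
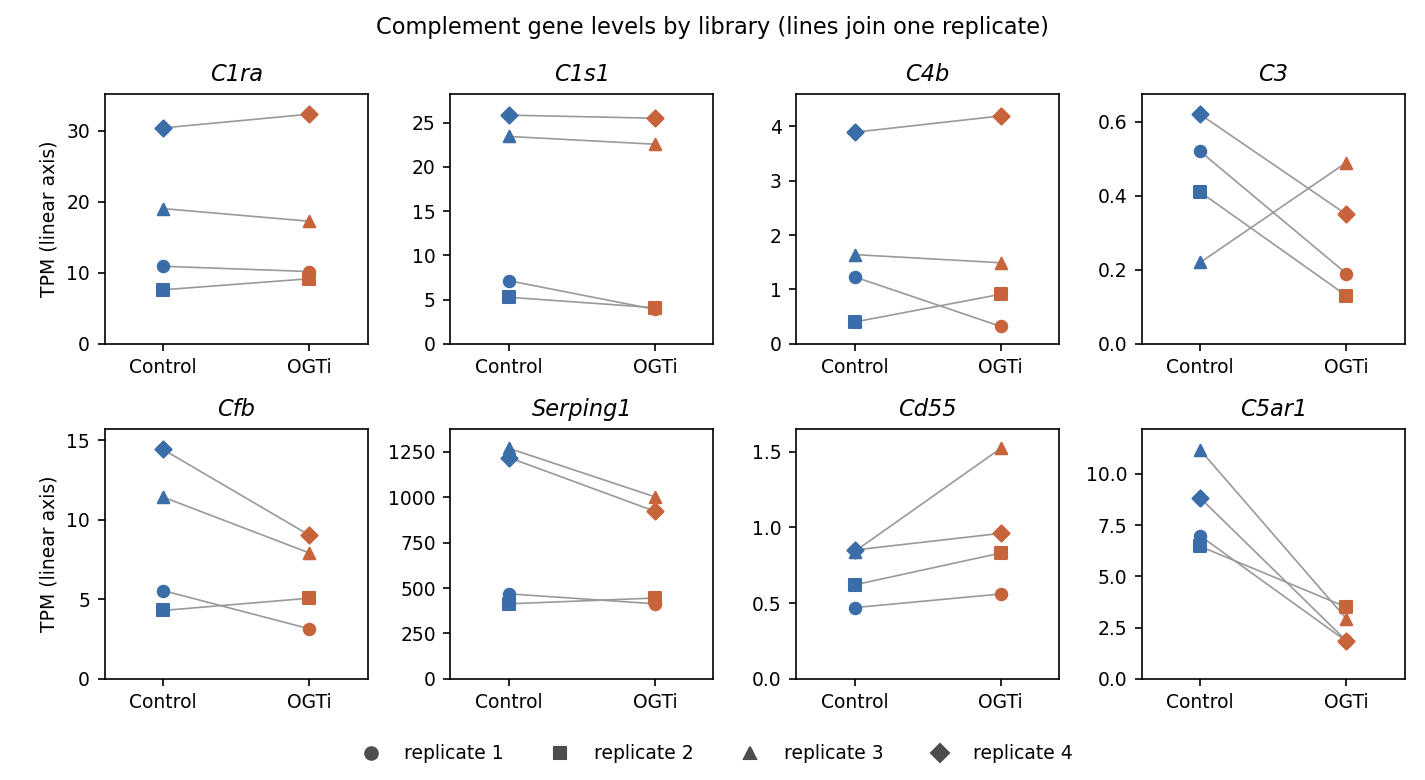
Levels of the 8 tested complement genes in TPM (linear axes starting at 0), with 1 point per library, blue for control and orange for OGTi, and lines joining a replicate number. C5ar1 lies lower in every OGTi library than in any control library, whereas C1ra, C1s1, Cfb and Serping1 keep replicates 3 and 4 above replicates 1 and 2 in both groups.

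The proteases of the C1 complex did not pass the test. C1ra (GRCm39 chromosome 6, 124489364 to 124500402, plus strand) encodes C1r, which activates C1s. Its scaled counts, that is counts brought to a common TMM-adjusted library size, were 574.2, 400.1, 965.9 and 1570.5 in control replicates 1 to 4 and 773.2, 518.2, 1134.4 and 2048.0 in OGTi. C1ra was higher in OGTi in 4 of 4 replicates, by 0.23 to 0.43 on the log2 scale, yet the groups overlapped because cultures differed up to 3.92-fold within control. In the paired fit the log2 fold change was 0.35 ± 0.20 (SE), the 95% interval ran from -0.10 to 0.81 and the edgeR adjusted p was 0.266. All 4 replicates shared a direction in 41.8% of all genes tested. In TPM, which uses no TMM scaling, C1ra was higher in OGTi in replicates 2 and 4 and lower in replicates 1 and 3.

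C1s1 (chromosome 6, 124507297 to 124559389, minus strand) encodes C1s, which cleaves C4 and C2. Its scaled counts were 402.7, 297.2, 1276.2 and 1433.6 in control and 317.5, 247.9, 1591.2 and 1733.3 in OGTi. The groups overlapped throughout, and OGTi was lower in replicates 1 and 2 and higher in replicates 3 and 4. This gave a log2 fold change of 0.00 ± 0.24 (SE), with a 95% interval of -0.53 to 0.53 (edgeR adjusted p 0.998).

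C4b (chromosome 17, 34947354 to 34962912, minus strand) encodes the component that C1s cleaves and that then binds to the target surface. It had 131.2, 42.2, 168.5 and 407.6 scaled counts in control and 49.2, 103.9, 198.6 and 536.4 in OGTi. This was the widest spread between cultures of any tested member, 9.66-fold within control and 10.9-fold within OGTi. Its log2 fold change of 0.15 ± 0.39 (SE) had a 95% interval of -0.73 to 1.02 (edgeR adjusted p 0.844). It took the opposite sign without replicate 2 (-0.19) and was 0.62 without replicate 1.

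Paralogs limit how far these rows can be separated. In GENCODE transcripts, 29.4% of the 100-base stretches of C1ra also occurred in C1rb, 11.2% of those of C4b in C4a, 5.89% of those of C1s1 in C1s2 and 3.05% of those of Cd55 in Cd55b. No member had a fractional count in any library. C1rb, the second C1r gene of the mouse, had 83.5, 64.2, 158.4 and 264.0 scaled counts in control, in the same order over cultures as C1ra. Reads of the shared stretches could belong to either row.

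C1ra and C1s1 ranked the 4 cultures in the same order within each group and lie within 70.0 kb of each other, so a RefSeq promoter window of each is shown. These windows span 250 bases before and 50 after an annotated start site, whose sequences were found once each in GRCm39. Both are printed from 5′ to 3′ on the strand of the gene, C1ra at chr6:124489330-124489629 (plus strand) and C1s1 at chr6:124519269-124519568 (minus strand), one of 2 overlapping C1s1 windows. The RefSeq start site lies 216 bases from the GENCODE gene start for C1ra but 40071 bases from it for C1s1, inside the span given above, so the C1s1 window belongs to a start site within the longer GENCODE gene. Capitals mark matches to the motifs searched.

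C1ra: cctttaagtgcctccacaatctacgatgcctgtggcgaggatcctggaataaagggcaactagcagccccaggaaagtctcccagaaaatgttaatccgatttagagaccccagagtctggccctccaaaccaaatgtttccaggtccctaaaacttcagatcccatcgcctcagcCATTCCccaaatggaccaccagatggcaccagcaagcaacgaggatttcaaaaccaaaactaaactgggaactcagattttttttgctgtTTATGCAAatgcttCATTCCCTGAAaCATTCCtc

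C1s1: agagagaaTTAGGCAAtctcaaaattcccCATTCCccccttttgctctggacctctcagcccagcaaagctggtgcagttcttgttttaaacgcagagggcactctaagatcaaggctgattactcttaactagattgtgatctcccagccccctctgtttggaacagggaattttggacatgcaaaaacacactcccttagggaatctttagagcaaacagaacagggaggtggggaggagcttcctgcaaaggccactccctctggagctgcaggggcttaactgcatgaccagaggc

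A total of 7 motifs were searched on both strands, namely GGG followed after 3 free bases by TTCC for NF-kB, TTCNNNGAA for STAT, GAAA followed after 2 free bases by GAAA for the ISRE core, TTGCNNAA for C/EBP, GGAATG for TEAD, TGANTCA for AP-1 and TATAAA. Both printed windows held the C/EBP and TEAD letters. The other C1s1 window, chr6:124519231-124519530, held no match to any motif, so this sharing depends on the start site taken. C1ra had 3 TEAD matches, at -74, 31 and 43 relative to the start site, and a C/EBP match at 17. It also had a STAT match at 33, which overlaps the second TEAD match. C1s1 had 1 C/EBP match at -242 and 1 TEAD match at -221. Of 32851 RefSeq promoter windows of this length, 14.7% held the TEAD letters, 10.8% those of C/EBP and 8.30% those of STAT. These matches describe letters only.

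Of the components at the centre of the cascade, C3 and Cfb did not pass and Cfd was hardly detected. C3 (chromosome 17, 57510964 to 57535155, minus strand) had 45, 34, 20 and 49 counts in control and 21, 11, 44 and 31 in OGTi. It was lower in OGTi in 3 of 4 replicates and higher in replicate 3, so the groups overlapped. Its log2 fold change of -0.31 ± 0.52 (SE) had a 95% interval from -1.46 to 0.84 (edgeR adjusted p 0.738). It was -0.85 without replicate 3 and 0.02 without replicate 2.

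Cfb (chromosome 17, 35074852 to 35081559, minus strand) encodes factor B, which forms the alternative C3 convertase. It had 285.3, 220.7, 566.3 and 728.4 scaled counts in control and 234.5, 280.3, 509.8 and 560.5 in OGTi. OGTi was lower in 3 of 4 replicates within overlapping groups. On the log2 scale Cfb differed by -0.12 ± 0.23 (SE), with a 95% interval of -0.63 to 0.40 (edgeR adjusted p 0.778). GENCODE places a further gene on the same strand, Gm20547, over 6172 bases of Cfb, so some of these reads may belong to that transcript.

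Cfd (chromosome 10, 79726668 to 79728496, plus strand) encodes factor D, also called adipsin, the protease that cleaves bound factor B. It had 0 counts in each control library, and 1, 0, 1 and 0 in OGTi replicates 1 to 4. A count of 0 allows up to 3 counts, or 0.0817 to 0.0846 CPM in these control libraries. Cfd fell below the minimum of 10 counts over all libraries, and no fold change was computed.

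The soluble inhibitor was abundant and the membrane inhibitor scarce. Serping1 (chromosome 2, 84595705 to 84620873, minus strand) had 15530.0, 13684.2, 40552.7 and 39623.0 scaled counts in control and 19793.2, 15855.3, 41488.9 and 36844.9 in OGTi. Replicates 3 and 4 held about the same high level in both groups and replicates 1 and 2 the same low level. Serping1 had a log2 fold change of 0.12 ± 0.18 (SE), with a 95% interval of -0.27 to 0.51 (edgeR adjusted p 0.687). In TPM the OGTi mean was the lower one, and the sign of the change depended on the scaling.

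Cd55 (chromosome 1, 130366469 to 130390926, minus strand) encodes decay-accelerating factor, which dismantles C3 convertases on the cell's own membrane. It had 27.5, 39.6, 46.0 and 46.2 scaled counts in control and 43.0, 49.1, 114.8 and 85.0 in OGTi. The OGTi library was the higher one in 4 of 4 replicates, and the groups overlapped only through OGTi replicate 1. For Cd55 the log2 fold change of 0.79 ± 0.34 (SE), with a 95% interval of 0.03 to 1.55, did not pass over all genes (unadjusted p 0.0421, edgeR adjusted p 0.141).

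C5ar1 (chromosome 7, 15980668 to 15993465, minus strand) encodes the receptor through which C5a attracts and activates myeloid cells. Its scaled counts were 330.2, 306.0, 510.1 and 410.4 in control and 126.0, 178.7, 174.4 and 105.7 in OGTi. Each OGTi library lay below each control library. The groups did not overlap in this way, in either direction, in 23.5% of all genes tested. The mean went from 389.2 ± 92.1 to 146.2 ± 36.0 scaled counts (SD, n = 4).

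C5ar1 thus had a log2 fold change of -1.42 ± 0.27 (SE), a 95% interval of -2.01 to -0.82 and, by edgeR, an adjusted p of 0.00571. By replicate the differences were -1.39, -0.77, -1.55 and -1.95 on the log2 scale, so the decrease was smallest in replicate 2. The call held in each of the 14 alternatives, where the log2 fold change ranged from -1.70 to -1.23 and the adjusted p from 3.18e-05 to 0.0373. Csf1r, a myeloid receptor gene, had a log2 fold change of -0.03 (edgeR adjusted p 0.942), while Cd14 was lower by a log2 fold change of -0.88 (adjusted p 0.0455) and Cd68 higher by 1.50 (adjusted p 0.00154). Ptprc, which encodes the leukocyte antigen CD45, did not exceed 0.11 TPM. The stellate markers Lrat and Pdgfrb and the endothelial markers Tek and Lyve1 were lower too, as given above. The part of other cell types, or of these markers, in the C5ar1 difference was not tested.

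As the single member that passed the test, C5ar1 is shown with its RefSeq promoter window, chr7:15993214-15993513 of GRCm39, minus strand, from 5′ to 3′. None of the 7 motifs matched, so it holds no capitals.

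C5ar1: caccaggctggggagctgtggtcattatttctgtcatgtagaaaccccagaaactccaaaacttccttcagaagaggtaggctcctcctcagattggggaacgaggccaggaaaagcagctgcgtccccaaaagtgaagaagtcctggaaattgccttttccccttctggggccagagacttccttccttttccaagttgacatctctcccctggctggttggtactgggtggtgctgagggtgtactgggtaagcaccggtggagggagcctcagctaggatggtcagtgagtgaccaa

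**Figure D2:**
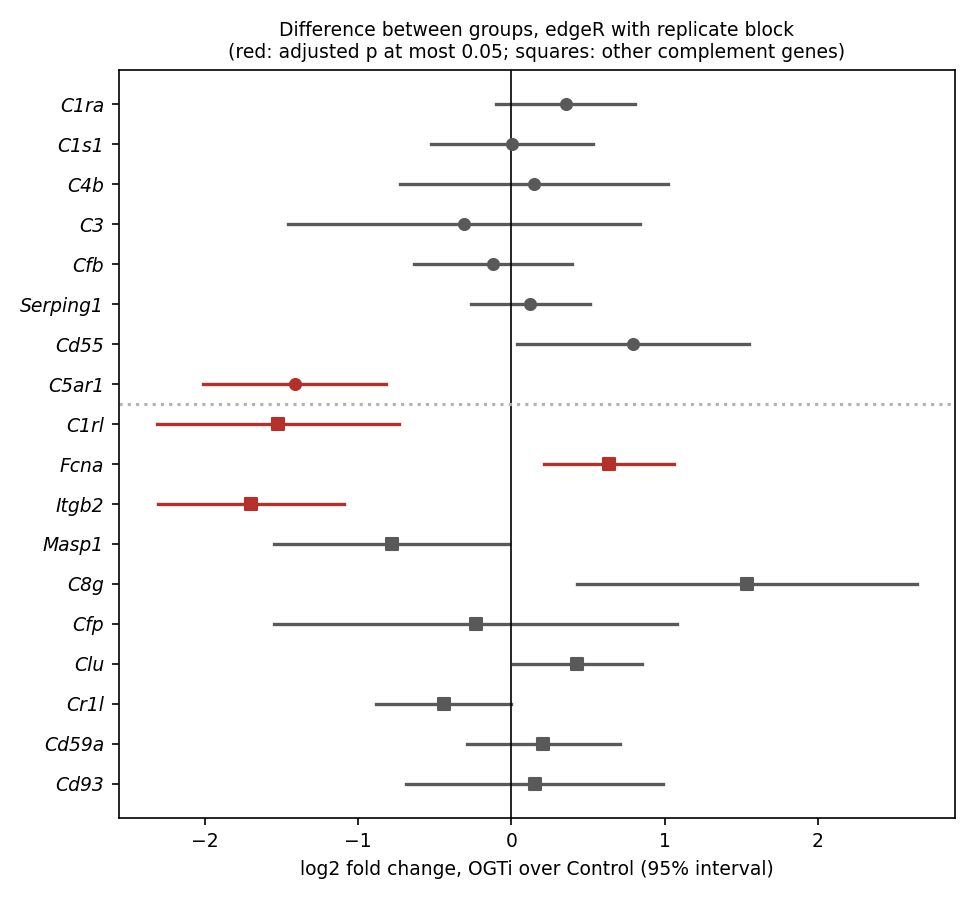
Log2 fold changes of OGTi over control with 95% intervals from edgeR with the replicate block, for the 8 tested members (circles) and 10 other complement genes (squares). Red marks an adjusted p of at most 0.05, which C5ar1, C1rl, Itgb2 and Fcna reached, and the interval of C3 is the widest among the members.

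For most members, more of the variance lay between replicate numbers than between groups. The variance of log2 scaled counts over the 8 libraries was split into a part between replicate numbers, a part between groups and a remainder. With more replicate numbers than groups, noise alone would also give the replicate part the larger share. The replicate part was 98.3% for C1s1, 97.5% for Serping1, 94.3% for C1ra, 94.2% for Cfb and 83.7% for C4b. For comparison, the median over 11659 genes with a mean of at least 1 TPM was 38.0%, and 110 of them (0.943%) reached 94%. The part between groups was at most 5.43% for these 5 members.

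Cd55 and C3 had lower replicate parts of 48.6% and 34.4%. For C3 the remainder was 60.3%, in a gene with 11 to 49 counts per library. C5ar1 was the reverse of the C1 proteases, with 7.97% between replicate numbers and 84.5% between groups. These parts are a description of 4 pairs of libraries, with no test.

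**Figure D3:**
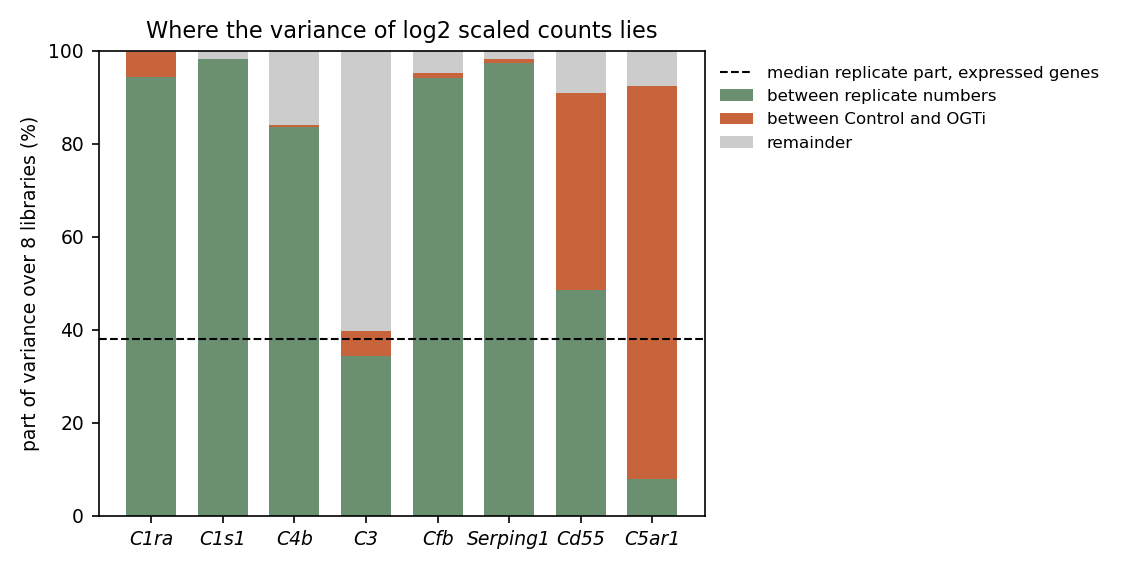
Parts of the variance of log2 scaled counts over the 8 libraries, in percent, that lie between replicate numbers (green), between control and OGTi (orange) and in the remainder (grey). The dashed line marks the median replicate part of 38.0% over expressed genes, which C1ra, C1s1, C4b, Cfb, Serping1 and Cd55 exceed and C3 and C5ar1 do not reach.

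Replicates 3 and 4 lay above replicates 1 and 2 in both groups for C1ra, C1s1, C4b, Cfb and Serping1. Library totals, which scaled counts and TPM already take into account, were 35441888 to 36698920 counts in control and 30068881 to 37372423 in OGTi. C1qb, encoding a chain of C1q that is made mainly by macrophages, had 1.8, 0.0, 108.7 and 70.3 scaled counts in control and 0.0, 2.2, 54.1 and 32.2 in OGTi. The macrophage markers summed to 62.1, 64.2, 191.3 and 99.2 TPM in control and to 94.7, 103.9, 236.7 and 96.8 TPM in OGTi. The stellate and myofibroblast list summed to 9551, 7945, 14236 and 15626 TPM in control and to 9639, 6700, 12512 and 16314 TPM in OGTi. Both lists thus moved in part with the replicate numbers, and their part in the levels of the members was not tested.

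The genes whose profile was most like that of C3 were Rsl1d1, Nsa2, Bpnt1, D16Ertd472e and Dld. Likeness was the root mean square difference of centred log2(TPM + 1) over the 8 libraries, from 0.06 to 0.09, among 11659 genes of at least 1 TPM. C3 itself varied by an SD of only 0.19 on that scale, which compresses low levels, so that many steady genes come close. By the same measure, applied to Serping1 after its values were seen, the closest genes were Bgn, Casq2, Lratd1, Olfml3 and the member Cfb, at 0.18 to 0.23 against an SD of 0.73. Cfb lies on another chromosome and at a far lower level than Serping1, and was 5th of the 11658 genes compared.

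The other genes of the complement system were examined next. Of 48 such genes 34 were tested, 1 was higher and 2 were lower in OGTi, against 8.13% and 10.2% of all genes tested, and their median log2 fold change was -0.32, against 0.01 over all genes. An unadjusted edgeR p under 0.05 was found for 9 of the 34, against 31.8% of all genes tested. The groups did not overlap for 4 of the 34, against 23.5% of all genes tested. The 14 that were not tested included Mbl1, Mbl2, Fcnb, Cpn2 and Cr2, and, of the pore-forming terminal components, C7, C8a, C8b and C9. Hc, which encodes C5, the source of the C5ar1 ligand, had 0, 0, 2 and 5 counts in control and 0 in each OGTi library.

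Among recognition molecules and early proteases, 1 of 13 tested genes was higher and 1 was lower, against 8.13% and 10.2% of all genes tested. Fcna, encoding the lectin ficolin A, had 1840.0, 1213.6, 3472.4 and 4365.5 scaled counts in control and 3230.1, 1719.8, 5278.0 and 6756.3 in OGTi. It varied 3.60-fold within control, and each OGTi library exceeded the control library of its replicate, as for C1ra. Its log2 fold change was 0.64 ± 0.19 (SE, edgeR adjusted p 0.0422). The call was lost without replicate 2, 3 or 4 (adjusted p 0.0747, 0.167 and 0.102), and with no replicate block the adjusted p was 0.379. Over all 14 alternatives it was lost in 9, and its adjusted p ranged from 0.00298 to 0.379.

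C1rl encodes a C1r-like protease next to C1ra on chromosome 6. It had 445.8, 473.1, 707.2 and 473.1 scaled counts in control and 302.1, 258.0, 123.6 and 103.4 in OGTi, without overlap. The log2 fold change was -1.52 ± 0.36 (SE, edgeR adjusted p 0.0150), while its neighbours C1ra and C1s1 did not pass, a contrast between genes that was not tested. Without replicate 3 or 4 it was -1.19 or -1.28 and no longer passed (adjusted p 0.0775 and 0.0820). Its adjusted p went from 9.51e-05 to 0.0820 across all alternatives.

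Masp1, the lectin pathway protease and the most abundant gene of this group at 1334.8 ± 218.5 TPM in control, had a log2 fold change of -0.78 ± 0.34 (SE, edgeR adjusted p 0.149). OGTi replicate 1 had 16487 scaled counts, against 65234 to 84400 in the other OGTi libraries, and without that replicate the log2 fold change was -0.29. None of the 6 soluble regulators tested passed. Among them Clu, encoding clusterin, had a log2 fold change of 0.43 ± 0.19 (SE, edgeR adjusted p 0.149).

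None of the 5 membrane regulators tested passed either. Cr1l, encoding Crry, the rodent inhibitor of C3 convertases, had 4581.7, 4488.4, 4268.9 and 4279.8 scaled counts in control and 4201.0, 3259.7, 3162.6 and 2555.7 in OGTi. The control libraries were close together and all OGTi libraries lay below them. On the log2 scale the difference was -0.44 ± 0.20 (SE, edgeR adjusted p 0.157), and at 148.7 ± 3.00 TPM in control Cr1l was far more abundant than Cd55. Cd59a, an inhibitor of the membrane attack complex, had a log2 fold change of 0.21 ± 0.22 (SE, adjusted p 0.580).

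Of the 7 other receptor genes tested 1, Itgb2, was lower, against 10.2% of all genes tested. It encodes CD18, the shared chain of the integrin receptors for cleaved C3. Its scaled counts were 335.7, 481.0, 487.1 and 325.7 in control and 118.8, 159.7, 198.6 and 58.6 in OGTi, without overlap. The log2 fold change was -1.70 ± 0.27 (SE, edgeR adjusted p 0.00268), and the call held in all 14 alternatives. Its partner chains Itgam and Itgax did not exceed 0.11 and 0.31 TPM. Cd93, described as a C1q receptor, had a log2 fold change of 0.15 ± 0.38 (SE, adjusted p 0.832).

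Of the 3 other components tested none passed. C8g, the gamma chain of C8, had 8.7 to 12.3 scaled counts in control and 21.8 to 45.2 in OGTi, for a log2 fold change of 1.54 ± 0.50 (SE, edgeR adjusted p 0.0581). Cfp, encoding properdin, which stabilizes the alternative convertase, had one of -0.23 ± 0.59 (SE, adjusted p 0.835).

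**Figure D4:**
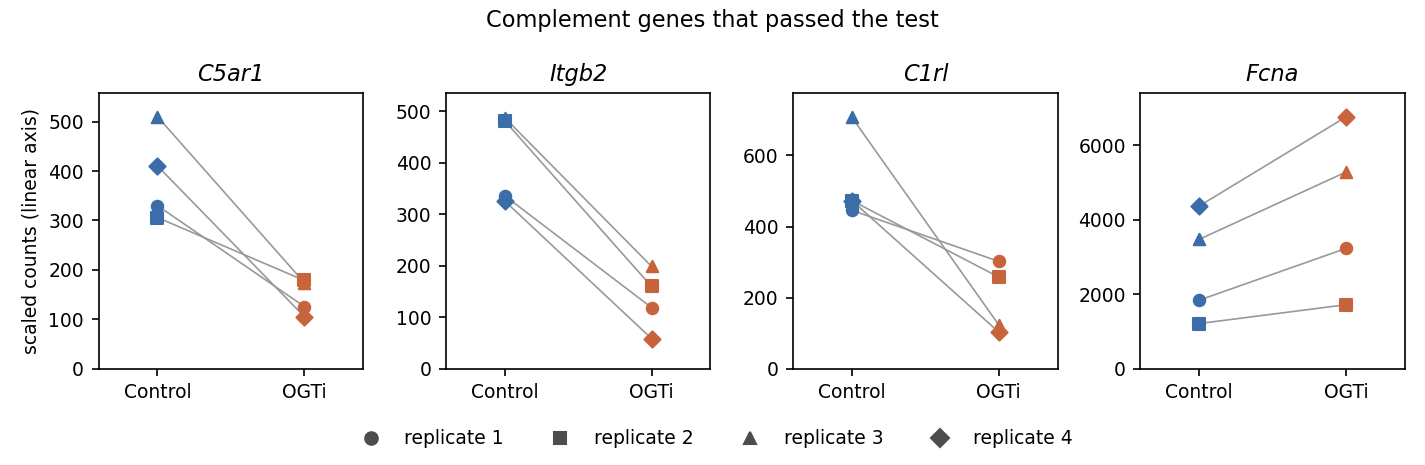
Scaled counts (linear axes starting at 0) of the 4 complement genes that passed the test, with 1 point per library and lines joining a replicate number. C5ar1, Itgb2 and C1rl lie lower in every OGTi library, and Fcna is higher in OGTi within each replicate while the groups overlap.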

How the data were processed

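RNA-seq of 4 control and 4 OGTi pMF-HSC cultures was used. Groups and replicate numbers came from the sample titles. Per the study's methods and the submitters' processing notes, the authors aligned stranded paired-end poly(A) reads to mm39 (GRCm39) with Bowtie2 2.3.5.1 and counted them with RSEM 1.3.1. The methods name GENCODE, while the transcript identifiers are RefSeq ones. The deposited tables give expected counts (RSEM estimates, here rounded to whole numbers) and deposited TPM, which is scaled by gene length and depth. A deposited table of the authors' own DESeq2 1.36.0 comparison, with normalized counts, fold changes and p-values, was not used. 

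Genes with at least 10 counts in total (19963 of 40840) were tested with edgeR 4.0.16 in R 4.3.3. TMM scaling and a quasi-likelihood fit were applied with the replicate number as a block, since the study paired samples of a replicate. P-values were Benjamini-Hochberg adjusted over all genes tested, and an adjusted p of at most 0.05 was a call. The SE is the log2 fold change over the root of F, and 95% intervals use it. Deviations of same-numbered libraries from their group means correlated across genes at 0.149, 0.202, 0.0835 and 0.289, against -0.274 to 0.183 for differently numbered ones, and the pairing itself rests on the methods. Variance parts use log2(scaled count + 0.5).

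The members and gene lists were chosen with earlier results of these data known. All members are named. Of the other complement genes, those that passed and the 2 most abundant of each role are named, except 1 that is not reported here, and any further gene with values was chosen after they were seen. Alternatives were DESeq2 1.42.0, other scalings and filters, no block, limma-trend (limma 3.58.1) on log2(TPM + 1) or log2(TPM + 0.1), removal of the length trend, a threshold of 0.01 and leaving out each replicate. Replicates are independent experiments per the methods. Totals of 30068881 to 37372423 counts per library set the precision, and limits given for a count of 0 cover counting error only, since the reads carry no molecular identifiers and need not be independent. Gene positions are from GENCODE vM39 (GRCm39). Promoter windows are from RefSeq (table build GRCm38.p6) and were placed on GRCm39 by exact match. They covered 6 of 9 members, without C4b, Cfb and Serping1.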

Additional observations from a re-analysis of the deposited data

Results flagged for a closer look

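In 2 of the 38 sets of 4 libraries examined, 1 library stood well away from the remaining 3, and chance alone would give 1.9 such sets. The C1rl level of control replicate 3 was 707.2 scaled counts, with the remaining control libraries at 445.8 to 473.1. For Cd59a, OGTi replicate 4 stood at 558.2 scaled counts while replicates 1 to 3 lay at 1024.1 to 1078.1.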

How the results depend on the processing

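C5ar1 was the only member called under each of the 14 alternatives, those without single replicates included. The number of other complement genes called was 3 and went to 5 with DESeq2, which added C8g and Colec11, and to 1 (Itgb2) under an adjusted p threshold of 0.01. Without single replicates it ranged from 1 to 3. The number of all genes called went to 1668 at the stricter threshold, and from 1905 to 3124 without single replicates, with 6 libraries in each fit. With no replicate block 1 member, 3 other complement genes and 2991 genes in all were called, Fcna being lost and C8g gained. Over the named genes and the alternatives, direction and call were kept in 222 cases, a call was lost in 12, gained in 10, and a sign turned in 22. Those gained included C8g in 5 alternatives, Cr1l with limma-trend (adjusted p 0.0148 and 0.0141) and with the length trend removed (0.0477), and Masp1 with no low-count filter (0.00813).

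Signs turned only for genes that had not passed. With library totals the log2 fold changes of C4b, C1s1, Serping1 and Cd93 were -0.054, -0.19, -0.072 and -0.049. With upper-quartile scaling that of Cfb was 0.0071, and with no low-count filter that of C1s1 was -0.0051. With limma-trend on TPM (1 added) the values of C4b, C1s1, Serping1, Cd59a and Cd93 were -0.077, -0.28, -0.20, -0.11 and -0.042. With 0.1 added they were -0.17, -0.32, -0.20, -0.11 and -0.15. Without single replicates C3 ranged from -0.85 to 0.023, C4b from -0.19 to 0.62, C1s1 from -0.11 to 0.12, Cfp from -0.82 to 0.024 and Cd93 from -0.25 to 0.53. The cause was not tested. Depth limits C3, Cd55, Cfd, Cfp and C8g, with under 120 counts in each library.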
